A study of Mus musculus with 8 samples.

Results

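The comparison sets N6-methyladenosine (m6A) levels in control TBLC beside those in control EPSC, at adenosines measured in both. It covers 7983 sites in 2817 genes, of 88981 distinct sites in the whole series. A site was taken when it stood in the deposited lists of both control TBLC libraries and in the EPSC table, and when both of those libraries and the control EPSC column each held 20 or more A+G reads at it. The members are 16.1% of the 49554 sites listed in both control TBLC libraries and 41.3% of the 19342 sites of the EPSC table. Of the EPSC sites with at least 20 reads in the control column, 71.1% are members. For 406 sites (5.09%) the lists name no gene, and these enter the site comparison only.

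The series holds 8 mouse libraries in 4 groups. TBLC, in the field short for totipotent blastomere-like cells, were grown in MYCP medium and received the control siRNA siNC or the siRNA siVirma. EPSC, in the field short for expanded or extended potential stem cells, carried dCas13b-FTO, a catalytically inactive RNA-guided Cas13b joined to the m6A demethylase FTO. Their guide was the control sgCtrl or sgGata6, which is directed at Gata6. The comparison uses siNC, as 2 libraries, against sgCtrl, whose 2 libraries are deposited as 1 pooled column. The sgGata6 pool and the siVirma libraries are given beside it as description. The control EPSC thus carry the demethylase construct that the control TBLC lack, and the TBLC carry an siRNA that the EPSC lack. Cell state, construct, culture, experiment and the efficiency of base conversion cannot be told apart in any difference below. No label states that the replicates are separate cultures, so the p-values rest on a spread between libraries that may be technical only.

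GLORI converts unmethylated adenosine chemically so that it is read as G, while methylated adenosine is still read as A. The level at a site is therefore the share of A among A and G reads, a fraction between 0 and 1. In cells, m6A is placed on nascent mRNA by a writer complex with METTL3 as its catalytic subunit, METTL14 as its partner, and WTAP, VIRMA and ZC3H13 among its regulatory subunits. FTO and ALKBH5 remove the mark, and reader proteins such as the YTHDF family and YTHDC1 bind it and affect splicing, export, translation and decay. In early embryonic cells m6A is known for marking transcripts of pluripotency regulators and for speeding their turnover.

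The sites held 1737149 and 1621582 A+G reads in siNC replicates 1 and 2, 459671 in the sgCtrl pool and 516607 in the sgGata6 pool. The median site had 128 and 121 reads in siNC and 32 in sgCtrl, so the EPSC value limits the precision of each difference. The median conversion rate that the lists give for the genes of these sites was 0.981 in both siNC libraries, and none was used for EPSC. Markers of cell state were checked as far as m6A reads allow. Of 32 naive pluripotency genes 24 had a member site. Such genes held 2.29% and 2.25% of gene-assigned reads at sites shared by the siNC lists and the EPSC table in siNC, and 1.66% in sgCtrl. In bulk RNA, fewer cells of a type and less RNA per cell cannot be told apart. Genes listed for the 2-cell stage program, 3 of 30 measured, held 0.200% and 0.191% in siNC and 0.178% in sgCtrl. Genes of the fibroblast (feeder) list, 5 of 25 measured, held 0.142% and 0.146% against 0.150%. A marker without a member site has no value here, whether or not it is expressed.

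At most sites the m6A level was lower in control EPSC than in control TBLC. The median site level was 0.377 in siNC replicate 1 and 0.370 in siNC replicate 2 (0.374 ± 0.0047, SD, n = 2), and 0.32 in the sgCtrl pool. The sgGata6 pool, the other EPSC value, had a median of 0.326. Per site, sgCtrl minus the siNC mean had a median of -0.0421, with quartiles of -0.109 and 0.0189, and 68.2% of sites lay below 0. Against siNC replicates 1 and 2 alone the median was -0.0420 and -0.0404. The same sites differed by a median of -0.0019 between the siNC libraries (replicate 2 minus replicate 1, quartiles -0.0347 and 0.0296). Between the EPSC pools (sgGata6 minus sgCtrl, 7211 sites with at least 20 reads in both) the median was 0.0032, with quartiles of -0.0599 and 0.07. The median difference between the cell states was thus larger in size than either quartile of the difference between the siNC libraries. It was smaller in size than either quartile of the difference between the EPSC pools, which have fewer reads.

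The sgCtrl level lay below both siNC libraries at 4782 sites (59.9%) and above both at 2005 (25.1%). It was at least 0.2 lower than the siNC mean at 633 sites (7.93%) and at least 0.2 higher at 70 (0.877%). Between the siNC libraries 23 sites were lower and 22 higher by that much. Between the EPSC pools, which have fewer reads, 223 were lower and 264 higher. Differences of 0.2 thus fell on both sides within each cell state, somewhat more often on the higher side between the EPSC pools, and mostly on the lower side between the states. Across the 7983 sites Pearson's r was 0.975 between the siNC libraries and 0.913 and 0.914 between each of them and sgCtrl. Over the 7211 sites it was 0.913 between the EPSC pools. These are descriptions over sites that share libraries, and the lower read number of both EPSC pools enters them.

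**Figure D1:**
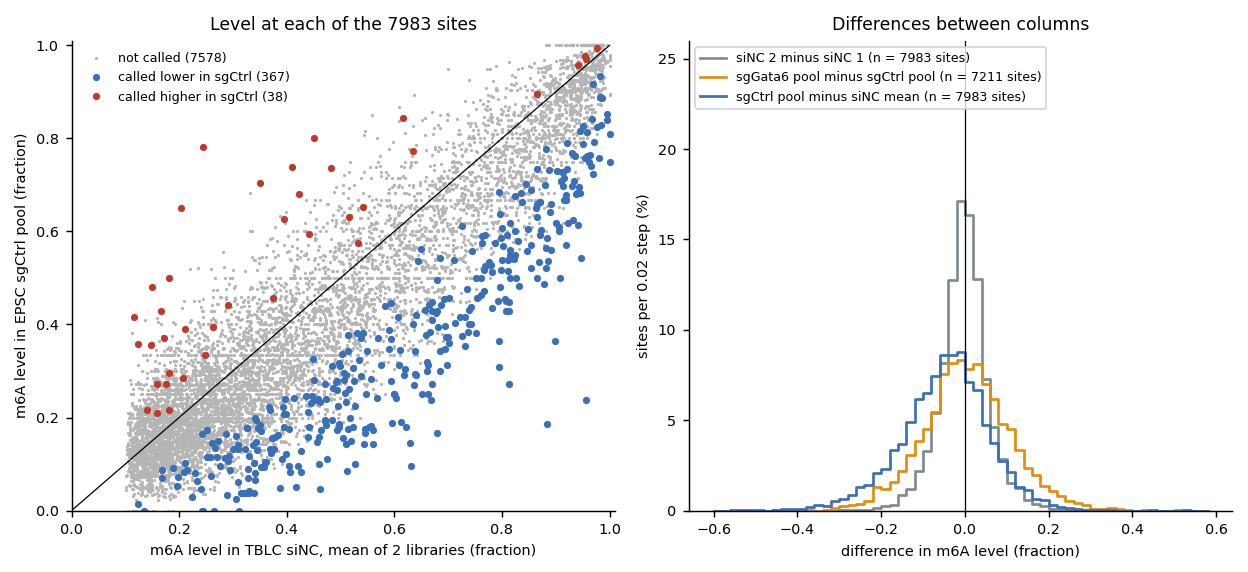
The left panel plots the level at each site in the sgCtrl pool (vertical axis) against the mean of the siNC libraries (horizontal axis), both as fractions, with the 367 sites called lower and 38 called higher in colour and the line of equal levels. The right panel gives the percent of sites per step of 0.02 in the level difference for siNC 2 minus siNC 1, sgGata6 minus sgCtrl and sgCtrl minus the siNC mean. Their medians are -0.0019, 0.0032 and -0.0421.

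The way sites enter the files bears on this median. Both siNC lists hold only sites with a level of at least 0.1 and at least 5 A reads, whereas the EPSC table also holds 5219 sites at which sgCtrl misses one of these minimums, and all 5219 meet them in sgGata6. Among the members, 978 (12.3%) miss a minimum in sgCtrl. Their median level was 0.191 and 0.187 in siNC, 0.1 in sgCtrl and 0.189 in sgGata6. Without them the median difference was -0.0319 over 7005 sites, in the same direction.

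The difference was not the same at every level. Sites were grouped by the average of their siNC and sgCtrl levels in steps of 0.1. The median difference was -0.0283 over the 1734 sites at 0.1 to 0.2, -0.0545 over the 1078 at 0.3 to 0.4, and -0.0771 over the 507 at 0.7 to 0.8. At 0.9 to 1, the 530 most methylated sites had a median of -0.00965, with 0.954 and 0.953 in siNC, 0.941 in sgCtrl and 0.912 in sgGata6. A difference of fractions is compressed near 0 and 1. In log2 odds the median was -0.30 both at 0.9 to 1 and at 0.1 to 0.2, -0.35 at 0.3 to 0.4, and -0.63 at 0.8 to 0.9. The 103 sites under 0.1 had a median difference of -0.0826, and 100% of them lay below 0. The siNC lists hold no level under 0.1, so an average under 0.1 fixes this direction in advance. The sgGata6 median of these sites was 0.156 against 0.124 and 0.122 in siNC. The median lay below 0 in each stratum of sgCtrl reads and was smallest in size in the deepest. The part of read number in the difference was not tested. The median was -0.0473 over 3410 sites with 20 to 29 sgCtrl reads, -0.0405 and -0.0427 in the next strata, and -0.0276 over the 610 sites with 100 or more. It lay below 0 on each of the 20 chromosomes with member sites, between -0.0581 on chromosome 18 and -0.0285 on chromosome 14.

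**Figure D2:**
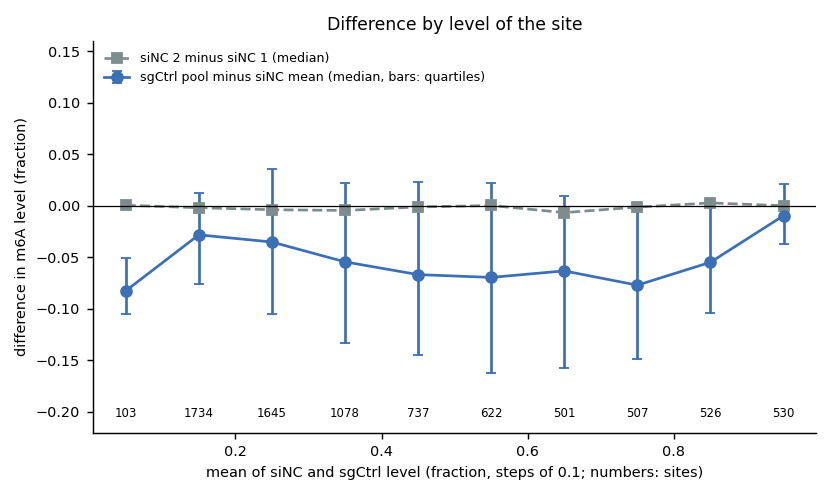
Median difference in level (vertical axis, fraction; bars are quartiles) against the mean level of the site in steps of 0.1 (horizontal axis, numbers give sites), for sgCtrl minus the siNC mean, with the siNC 2 minus siNC 1 median as squares. The medians of the first run from -0.0826 and -0.0283 in the lowest steps to -0.0771 at 0.7 to 0.8 and -0.00965 at 0.9 to 1, while the siNC medians stay near 0. In the step under 0.1 the siNC list minimum of 0.1 fixes a negative difference in advance.

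Tested site by site, 367 sites were lower in sgCtrl (4.6% of those tested) and 38 higher (0.476%), 5.07% in all, by edgeR's quasi-likelihood test on A and G reads at a Benjamini-Hochberg adjusted p of 0.05. The test takes the spread from the siNC libraries, assumes that the EPSC pool varies like them, and compares these libraries. Fisher's exact test, adjusted over the same sites, called 2 sites (0.0251%) between siNC replicates 1 and 2, and 260 (3.26%) and 241 (3.02%) between each of them and sgCtrl. Fisher's exact test on summed siNC reads called 352 sites (4.41%), all of them among the 405. The whole distribution was shifted by a median of -0.37 in log2 odds of A to G reads, and when the test was made relative to that shift 106 sites were lower and 83 higher. The share of higher sites among the calls was then 43.9% in place of 9.38%. Centring sets the balance of directions by construction, so this split describes the scale and not the sites. The lower calls numbered 178 with the sgGata6 pool as the EPSC value, 211 and 233 without siNC replicates 1 and 2 (Fisher's exact test), and 8 with DESeq2 or with no read minimum.

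The called lower sites had higher siNC levels than the median member site. Choosing sites by a drop from the siNC level, or by a gain over it, itself favours high or low siNC levels. The siNC medians below are thus partly set by the selection. Their medians were 0.624 and 0.644 in siNC, 0.325 in sgCtrl and 0.407 in sgGata6, with differences from -0.718 to -0.0484, and they lay in 273 named genes. The 38 called higher sites had medians of 0.292 and 0.263 in siNC, 0.538 in sgCtrl and 0.446 in sgGata6, in 28 named genes. In both sets the sgGata6 pool, which the calls did not use, lay between siNC and sgCtrl. Sites picked for an extreme sgCtrl value tend to be less extreme in another pool, so the sgCtrl differences here are likely too wide. Of the lower sites 304 (82.8%) were listed in both siVirma libraries, with medians of 0.273 and 0.264 there. Of the higher sites 20 (52.6%) were, with medians of 0.185 and 0.180, and of all member sites 4442 (55.6%), with medians of 0.239 and 0.238. A site enters the siVirma lists only above the level minimum, so sites of high siNC level are listed there more readily.

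Among sites with at least 50 reads in every column, the largest drop was in Nudcd3, which encodes a cochaperone of the NudC family. Its site at chr11:6057185 on the minus strand (mm39) had levels of 0.958 and 0.937 in siNC and 0.542 in sgCtrl (64 of 118 reads, 95% Wilson interval 0.453 to 0.630). The sgGata6 pool gave 0.521 over 142 reads, so both EPSC values stood far below both TBLC values (log2 odds difference -3.90, SE 0.43, edgeR adjusted p = 1.65e-16). A nearby Nudcd3 site, chr11:6057210, went from 0.474 and 0.549 to 0.0847 in sgCtrl and 0.143 in sgGata6. All 9 Nudcd3 sites were lower in sgCtrl than the siNC mean, and 3 were called.

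Dcp2, the catalytic subunit of the mRNA decapping enzyme, had a site at chr18:44551493 on the plus strand with levels of 0.697 and 0.699 in siNC, 0.314 in sgCtrl and 0.453 in sgGata6 (edgeR adjusted p = 6.74e-05). Psmd7, a subunit of the proteasome's regulatory particle, had one at chr8:108307882 on the minus strand with 0.691 and 0.771 in siNC and 0.353 in sgCtrl (edgeR adjusted p = 8.07e-07). There the sgGata6 pool stood at 0.602, much nearer to TBLC, and with that pool as the EPSC value the adjusted p was 0.289. The EPSC pools did not show the same low level at this site.

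Arf6, a small GTPase of membrane traffic, had 0.587 and 0.733 in siNC against 0.3 in sgCtrl and 0.32 in sgGata6 at chr12:69419808, plus strand (edgeR adjusted p = 0.000397). The sgGata6 value rests on 25 reads, and with it the adjusted p was 0.156. Peg10, an imprinted gene derived from a retrotransposon, had 0.833 and 0.829 against 0.482 and 0.566 at chr6:4758290, plus strand (edgeR adjusted p = 2.72e-05). All of these named sites except those of Psmd7 and Arf6 also passed the threshold with the sgGata6 pool in place of sgCtrl.

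In the other direction only 4 sites met the same read and size minimums. Msmo1, a methylsterol monooxygenase of cholesterol synthesis, had levels of 0.445 and 0.402 in siNC and 0.681 in sgCtrl at chr8:65171523, minus strand, with 0.749 in sgGata6 (edgeR adjusted p = 0.000169). Hk2, a hexokinase that starts glycolysis, had 0.512 and 0.453 against 0.737 in sgCtrl and 0.810 in sgGata6 at chr6:82751303, minus strand (edgeR adjusted p = 0.00538). The call at Hk2 was lost without siNC replicate 2 (Fisher's exact test, adjusted p = 0.0543) and with sgGata6 as the EPSC value (edgeR adjusted p = 0.0502).

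Txnip, a thioredoxin-binding protein that restrains glucose uptake, had 0.118 and 0.131 against 0.357 in sgCtrl and 0.289 in sgGata6 at chr3:96468244, plus strand (edgeR adjusted p = 0.000516). Gm5814, a predicted gene, had 0.385 and 0.404 against 0.627 and 0.603 at chr17:47722286, plus strand (edgeR adjusted p = 0.000575). At each of these 4 sites both EPSC values lay above both TBLC values. All 9 named sites kept their direction and their call when the test was made relative to the median shift.

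Summed over its sites, the typical gene was also lower in EPSC. The gene level is the share of A among the A and G reads of all member sites of a gene. The median difference of the 2817 genes was -0.0463 (quartiles -0.0986 and 0.00967), and 71.7% lay below 0. By edgeR, 157 genes were lower (5.57%) and 12 higher (0.426%), 6% in all. Fisher's exact test called 2 genes (0.071%) between the siNC libraries and 261 (9.27%) and 245 (8.7%) between each of them and sgCtrl. The lower genes ranged from -0.401 to -0.0602 with a median of -0.158. Relative to the median gene shift of -0.33 in log2 odds, 19 genes were lower and 24 higher, a share of higher genes of 55.8% in place of 7.1%, again set by the centring. The lower and higher calls numbered 308 and 34 with the sgGata6 pool and 35 and 3 with DESeq2, and 88 genes were lower with an edgeR variance not below counting error. limma on log2 odds called no gene after adjustment, with 825 lower and 201 higher at an unadjusted p under 0.05, against 577 and 79 by edgeR.

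A summed gene level also moves when reads shift from 1 site to another. With equal weight for each site the median gene difference was -0.0437, and 1 of the 157 lower genes and 2 of the 12 higher genes changed sign. An exact conditional test stratified by site, added after the gene calls were seen, called 328 genes lower and 31 higher, including 147 of the 157 and 10 of the 12. This test sums the reads of the siNC libraries, so the spread between those libraries does not enter it. Its adjusted p-values reflect counting error alone. For a gene with 1 site it is Fisher's exact test on the summed siNC reads and the sgCtrl reads. Genes named below for which this test and the summed reads by edgeR gave different calls are marked as such.

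Among called genes with at least 100 reads in each column, Xpo4, a nuclear transport receptor, had the largest lower difference, with 0.594 and 0.615 in siNC, 0.342 in sgCtrl (95% Wilson interval 0.272 to 0.419, 158 reads) and 0.489 in sgGata6 (edgeR adjusted p = 0.00532). Nedd4, a ubiquitin ligase, had 0.493 and 0.490 against 0.247 and 0.252 (edgeR adjusted p = 9.35e-05). Its sgCtrl value rests on 514 reads over 3 sites, and the EPSC pools were alike. Midn, a midbrain-enriched nuclear protein that routes proteins to the proteasome, had 0.502 and 0.465 against 0.241 in sgCtrl and 0.261 in sgGata6.

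Zdhhc18, a protein palmitoyltransferase, had 0.625 and 0.627 in siNC, 0.394 in sgCtrl and 0.431 in sgGata6. Emg1, a methyltransferase of ribosome assembly, had 0.647 and 0.636 against 0.420 and 0.492, with both of its sites called. Trim44, a tripartite motif protein, had 0.383 and 0.387 against 0.175 and 0.287. In each of these genes both EPSC values lay below both TBLC values.

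Mapre1, which encodes the microtubule end-binding protein EB1, had 0.583 and 0.506 against 0.319 in sgCtrl and 0.426 in sgGata6. Its difference was -0.226 with summed reads and -0.111 with equal weight for its 4 sites, and the stratified test did not call it (adjusted p = 0.103). The symbol n-TRcct1 belongs to a transfer RNA gene, and its 1 site had 0.771 and 0.803 against 0.575 and 0.551. Reads there cannot be told apart from those of another transcript that covers the position. Whether the A reads at this position stand for m6A was not tested. With sgGata6 as the EPSC value the calls of Xpo4 (adjusted p = 0.121), Mapre1 (0.186) and Trim44 (0.0848) were lost, and those of the other 5 were kept. Relative to the median shift, Nedd4, Xpo4, Emg1 and n-TRcct1 remained called.

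**Figure D3:**
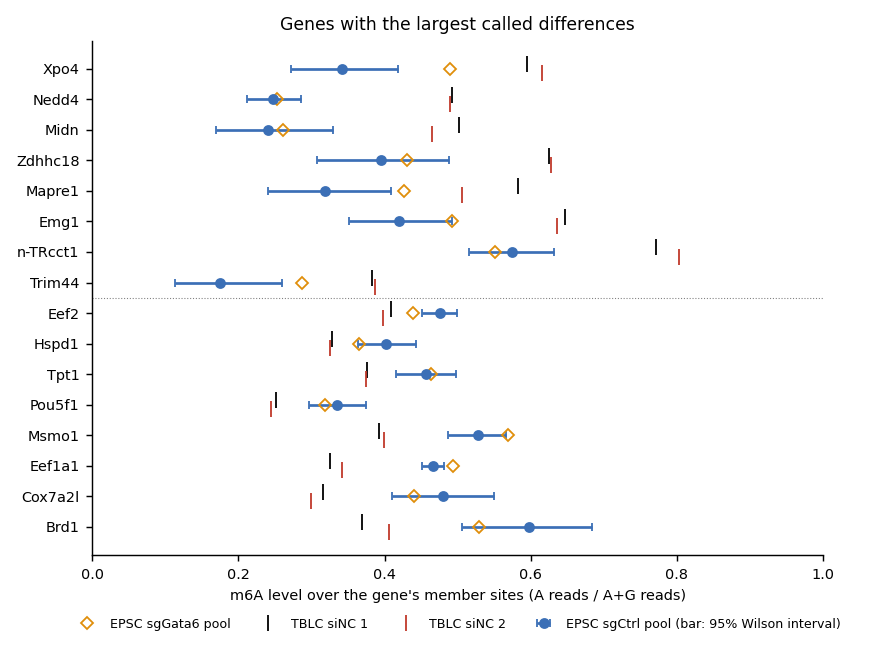
Level over the member sites of each gene (horizontal axis, A reads over A+G reads) for the 8 called genes with the largest lower and the 8 with the largest higher difference among those with at least 100 reads in each column; ticks are the siNC libraries, circles the sgCtrl pool with its 95% Wilson interval, and diamonds the sgGata6 pool. For every gene above the dotted line both EPSC values lie left of both siNC values, and for every gene under it they lie right of them.

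Among the 12 higher genes, Eef1a1, the elongation factor that brings aminoacyl-tRNA to the ribosome, had 0.326 and 0.342 in siNC, 0.466 in sgCtrl over 4441 reads and 0.494 in sgGata6 (edgeR adjusted p = 9.35e-05). Its 3 sites differed by 0.0350, -0.0376 and 0.110, a mean of 0.0358 against 0.132 for summed reads. The 2 sites that were higher were called and the other was not. Eef2, the translocation factor, had 0.409 and 0.398 against 0.475 with summed reads, but none of its 5 sites was called and their mean difference was -0.0078. The stratified test gave the other direction and no call for Eef2 (adjusted p = 0.804), so the summed value is not a higher level at its sites.

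Hspd1, a mitochondrial chaperonin, had 0.327 and 0.325 against 0.402 in sgCtrl and 0.364 in sgGata6, with 2 of 3 sites called. Tpt1, the translationally controlled tumour protein, had 0.376 and 0.374 against 0.456 and 0.464 at its 1 site. Cox7a2l, a factor of respiratory supercomplexes, had 0.316 and 0.299 against 0.479 and 0.440, with all 4 sites higher and none called on its own (stratified test, adjusted p = 0.053). Hsp90aa1, a cytosolic chaperone, had 0.157 and 0.158 against 0.200 and 0.200, with 1 site called higher and the other 3 lower than siNC. Slc25a5, the mitochondrial adenine nucleotide carrier, had 0.166 and 0.168 against 0.233 and 0.215, with all 5 sites higher and 2 called. Several of these genes, Eef1a1, Tpt1, Hspd1 and Hsp90aa1 among them, have processed pseudogene copies, so the assignment of their reads is uncertain.

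Brd1, a bromodomain scaffold of a histone acetyltransferase complex, had 0.369 and 0.405 against 0.598 in sgCtrl over 112 reads and 0.529 in sgGata6. With sgGata6 its adjusted p was 0.102. Mars1, the methionyl-tRNA synthetase, and Pias4, a SUMO ligase, each had 1 site with few reads. Mars1 had 0.265 and 0.224 against 0.781 over 32 sgCtrl reads, with 0.625 in sgGata6, and Pias4 had 0.259 and 0.150 against 0.650 over 20 reads, with 0.429 in sgGata6. These 2 sites showed the widest gains of the called genes and rest on the fewest reads.

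How sites behaved within a gene could be followed where many were measured. Of the 101 genes with at least 10 sites, 93 had a median site difference below 0, and 44 were called lower and 1 higher, beside 5.57% and 0.426% of all genes. Genes with more sites have more reads behind the test. The medians ran from -0.201 in Akap12, a scaffold of protein kinase A, to 0.0557 in Msmo1. Peg10 had the most sites, 46, of which 43 were lower than the siNC mean and 8 were called lower. Its gene level was 0.545 and 0.531 in siNC, 0.423 in sgCtrl and 0.400 in sgGata6 (edgeR adjusted p = 0.000435). Its reads in sgCtrl relative to siNC stood 2.40 log2 units above the median gene, so this is also a gene with unusually many EPSC reads. Of its 6 sites with a siNC mean over 0.95, 5 stood between 0.875 and 0.984 in sgCtrl and were not called. The other, chr6:4758916, was called, with 0.970 and 0.961 against 0.741 in sgCtrl and 0.796 in sgGata6.

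Srrm2 and Son, large proteins of nuclear speckles, had 34 and 30 sites. In Srrm2 24 sites were lower and 3 called, and its gene level was 0.382 and 0.386 against 0.313 (edgeR adjusted p = 0.0139). In Son 18 were lower and 2 called, with 0.446 and 0.449 against 0.386 (edgeR adjusted p = 0.027). Msh6, a mismatch repair protein with 27 sites, had 0.435 and 0.422 against 0.398, which did not pass (edgeR adjusted p = 0.188). The test stratified by site called Msh6 lower (adjusted p = 0.0196). Relative to the median shift neither Srrm2 nor Son was called.

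Scd2, a stearoyl-CoA desaturase, was the only gene with sites called in both directions. Of its 12 sites 7 were called lower and 1 higher. The higher one, chr19:44282678, is the first along the plus strand and went from 0.183 and 0.151 in siNC to 0.429 in sgCtrl (35 reads) and 0.500 in sgGata6. The deepest called one, chr19:44294423, went from 0.244 and 0.241 to 0.164 and 0.174. Over the gene the level was 0.302 and 0.305 against 0.189 and 0.198 (edgeR adjusted p = 9.35e-05), also called relative to the median shift.

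Akap12 had 14 of 16 sites lower and 5 called, with 0.648 and 0.660 against 0.459 in sgCtrl and 0.365 in sgGata6. Nufip2, an RNA-binding partner of the fragile X protein, had 16 of 19 lower and 4 called, and its sgGata6 level of 0.440 lay between 0.560 and 0.555 in siNC and 0.371 in sgCtrl. Rest, the repressor of neuronal genes, had all 16 sites lower and 4 called, with 0.397 and 0.375 against 0.250 and 0.258. Slc2a3, a glucose transporter, had all 9 lower and 4 called, with 0.470 and 0.456 against 0.360 and 0.383. Slc25a36, a mitochondrial nucleotide carrier, had all 6 lower and 4 called, with 0.488 and 0.486 against 0.283 and 0.364. In these genes the lower level was spread over many sites.

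Across all genes, neighbouring sites of a gene resembled each other weakly in their difference. For 1058 pairs of adjacent sites at most 30 bases apart Pearson's r of the differences was 0.207, for 1255 pairs at 31 to 100 bases 0.170, for 1825 pairs at 101 to 1000 bases 0.156, and for 622 pairs farther apart 0.111. For the siNC library difference the same pairs gave 0.0253, -0.0295, -0.0295 and -0.0043. Close sites share sequencing reads. These are descriptions over sites and carry no test.

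**Figure D4:**
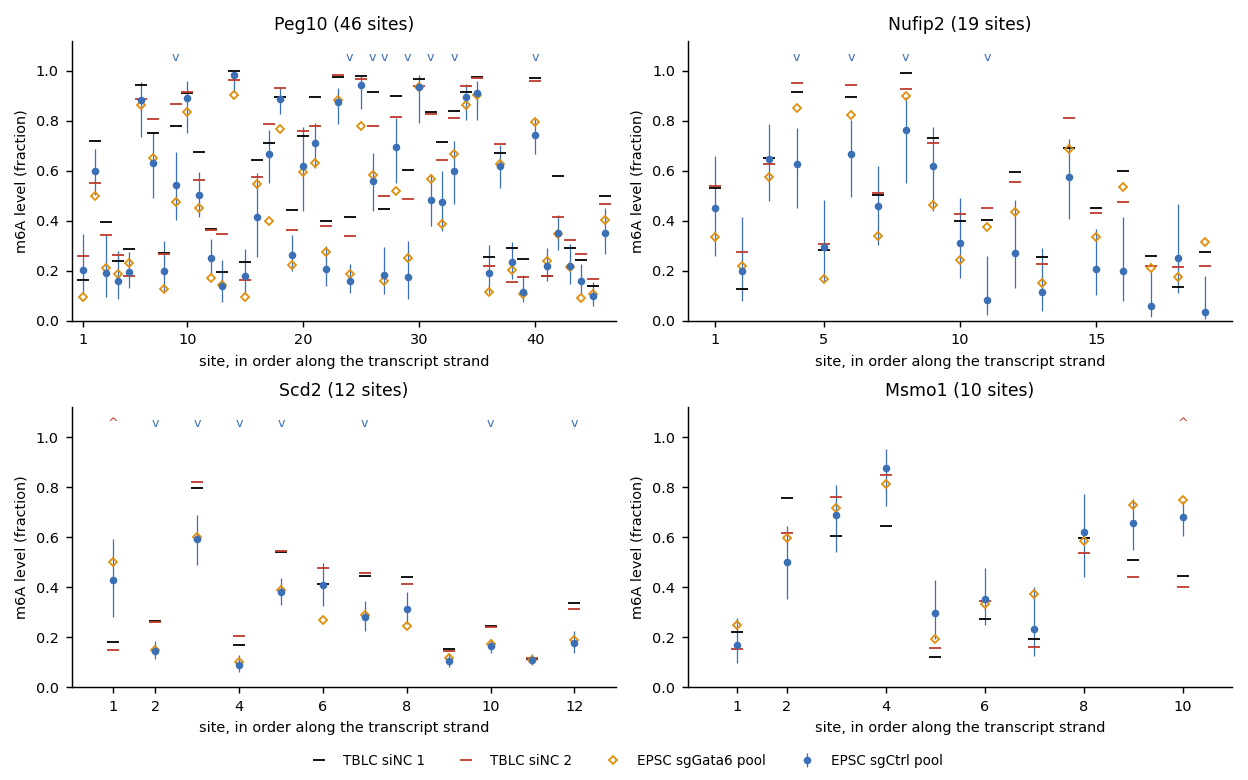
Level (vertical axis, fraction) at each member site of Peg10, Nufip2, Scd2 and Msmo1 in order along the transcript strand (horizontal axis, equal steps and not distance); dashes are the siNC libraries, filled circles the sgCtrl pool with its 95% Wilson interval, open diamonds the sgGata6 pool, and marks at the top show sites called lower (v) or higher (^). In Peg10 43 of 46 sites lie below the siNC mean, in Scd2 the first site alone is called higher, and in Msmo1 8 of 10 lie above it.

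For the m6A machinery's own transcripts no summed gene level was called. Of the writer complex 4 of 8 genes were measured, each by 1 site, with a median difference of -0.057 beside -0.0463 over all genes. Mettl14 had 0.296 and 0.308 in siNC, 0.208 in sgCtrl (24 reads) and 0.304 in sgGata6. Virma had 0.759 and 0.788 against 0.727 and 0.600, and Zc3h13 0.419 and 0.326 against 0.304 and 0.444. Wtap, at 0.611 and 0.583 against 0.617 and 0.489, was the 1 member with a positive difference. These values rest on 22 to 47 sgCtrl reads per gene, so a difference the size of the median would not have been detectable at this depth.

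Of the readers and erasers 7 of 14 were measured, all with a negative difference, as were 71.7% of all genes, and none called by summed reads (median -0.0694). Ythdf3, a cytoplasmic reader, had 11 of 12 sites lower, with 0.584 and 0.592 against 0.518 and 0.481 (edgeR adjusted p = 0.125), and the test stratified by site called it lower (adjusted p = 0.016). Ythdf1 had 0.365 and 0.366 against 0.352 and 0.343, and Ythdc1, the nuclear reader, 0.333 and 0.313 against 0.292 (24 reads). Alkbh5, the eraser, had 0.392 and 0.424 against 0.355 and 0.415 (edgeR adjusted p = 0.410). Igf2bp1, which binds and stabilises methylated mRNA, had 0.283 and 0.228 against 0.151 and 0.225. Prrc2a had 0.488 and 0.459 against 0.402, with 1 of 7 sites called lower, and Hnrnpa2b1 0.192 and 0.164 against 0.0667 over 30 reads.

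Genes of S-adenosylmethionine metabolism, which supplies the methyl donor, had a median of 0.065 over the 8 measured of 17. Of these 3 were below 0 and 5 above, with none called by summed reads. Among all genes the median was -0.0463, with 71.7% below 0, 5.57% called lower and 0.426% higher. The 3 below 0 were Mtr (-0.102), Shmt1 (-0.0825) and Shmt2 (-0.0028). Mat2a, the synthetase whose own mRNA is methylated by METTL16 and regulated through that mark, had 0.720 and 0.718 in siNC, 0.873 in sgCtrl (55 reads, 95% Wilson interval 0.760 to 0.937) and 0.868 in sgGata6. Both of its sites were higher in both EPSC pools. The difference of 0.153 did not pass with either EPSC pool (edgeR adjusted p = 0.104 with sgCtrl and 0.0507 with sgGata6), and the test stratified by site gave an adjusted p of 0.0448. Mettl16 itself had 0.224 and 0.317 against 0.444 over 27 sgCtrl reads, with 0.333 in sgGata6, near siNC replicate 2. Mthfd2, a mitochondrial folate enzyme, had 0.173 and 0.215 against 0.316 in sgCtrl (edgeR adjusted p = 0.157) and 0.261 in sgGata6.

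Of the naive pluripotency genes 18 of 24 were below 0, with 1 called lower and 1 higher and a median of -0.0464. Among all genes 71.7% were below 0, 5.57% lower and 0.426% higher, with a median of -0.0463. Nanog, a core pluripotency factor, was lower at 6 of 7 sites, with 0.331 and 0.335 against 0.258 in sgCtrl and 0.274 in sgGata6 (edgeR adjusted p = 0.0264). Its most methylated site, chr6:122690357, went from 0.948 and 0.945 to 0.870 and 0.866, and the 1 called site, chr6:122690516, from 0.378 and 0.411 to 0.208, with 0.380 in sgGata6. Pou5f1, which encodes OCT4, was higher at its 1 site, chr17:35817224 on the plus strand, with 0.251 and 0.244 over 3591 and 3274 reads against 0.335 over 559 and 0.318 in sgGata6 (edgeR adjusted p = 0.0222). With sgGata6 its adjusted p was 0.0549. Nanog and Pou5f1 thus differed in opposite directions. Relative to the median shift Pou5f1 was still called and Nanog was not (adjusted p = 0.467).

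Sall4, Zfp42, Esrrb, Sox2 and Klf4 were not called by summed reads. Zfp42, a marker of the naive state, had all 8 sites lower with 0.541 and 0.499 against 0.458 (edgeR adjusted p = 0.187). Sall4, a zinc finger regulator of pluripotency, had 7 of 8 lower and 2 of them called, with 0.715 and 0.681 against 0.626 (edgeR adjusted p = 0.187). The test stratified by site called Zfp42 (adjusted p = 1.4e-06) and Sall4 (adjusted p = 0.000265) lower. Sox2 had 0.609 and 0.587 against 0.576, Klf4 0.547 and 0.563 against 0.495, and Esrrb 0.274 and 0.274 against 0.242.

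Primed epiblast genes, 6 of 18 measured, had a median of -0.0023 and no call by summed reads. Over all genes the median was -0.0463, with 5.57% called lower and 0.426% higher. Otx2, a factor of the formative and primed states, had 0.306 and 0.357 against 0.682 in sgCtrl and 0.526 in sgGata6 at 1 site with 22 and 19 EPSC reads (edgeR adjusted p = 0.0571). With 1 site nothing is stratified, and the stratified run, there Fisher's exact test on summed siNC reads, called Otx2 higher (adjusted p = 0.0458). Of the primitive endoderm genes 10 of 31 were measured, with 1 lower call and a median of -0.0250. That call was Lamc1, a laminin chain of the basement membrane, with 12 of 14 sites lower and 6 called, and 0.352 and 0.352 against 0.234 in sgCtrl and 0.232 in sgGata6 (edgeR adjusted p = 0.00307). Its laminin partner Lamb1 had 0.330 and 0.423 against 0.524 over 42 reads and was not called.

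Gata6, the primitive endoderm regulator that the other EPSC guide is directed at, had 3 member sites on chromosome 18. Its level was 0.698 and 0.702 in siNC and 0.692 in sgCtrl over 78 reads (edgeR adjusted p = 0.957), with a 95% Wilson interval of 0.583 to 0.784. Control TBLC and control EPSC thus stood within counting error there, while the sgGata6 pool gave 0.424 over only 33 reads. Of the 2-cell stage genes 3 were measured and Eif1a was called lower, as were 5.57% of all genes, with 0.455 and 0.431 against 0.348 and 0.370. Yap1 was the 1 trophectoderm gene measured of 22, with 0.291 and 0.301 against 0.229 in sgCtrl and 0.302 in sgGata6, not called.

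Of 22 measured FGF-ERK genes 17 were below 0 and 3 were called lower, with a median of -0.0463, beside 71.7% below 0 and 5.57% called lower among all genes. Gab1, an adaptor of receptor tyrosine kinases, had 11 of 13 sites lower and 0.387 and 0.368 against 0.272 (edgeR adjusted p = 0.0104). Nras, a RAS GTPase, had 0.368 and 0.355 against 0.170, and Fos, an immediate early transcription factor, 0.439 and 0.428 against 0.241 and 0.115 in sgGata6. All 6 measured Wnt genes were below 0 and 2 were called, with a median of -0.0865. Ctnnb1, beta-catenin, had 0.314 and 0.308 against 0.197 in sgCtrl and 0.281 in sgGata6 (edgeR adjusted p = 0.00399). Csnk1a1, a kinase that primes beta-catenin for destruction, had 0.398 and 0.395 against 0.305 and 0.380 (edgeR adjusted p = 0.00243). With sgGata6 as the EPSC value both calls were lost, at adjusted p values of 0.314 for Ctnnb1 and 0.487 for Csnk1a1.

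All 7 measured DNA methyltransferase and Tet genes were below 0, with a median of -0.132 and 1 call, beside 71.7% below 0 and 5.57% called lower among all genes. Tet2, a methylcytosine dioxygenase, had 11 of 12 sites lower and 0.551 and 0.539 against 0.409 and 0.399 (edgeR adjusted p = 0.0158). Tet1 had 19 of 22 sites lower but 0.385 and 0.381 against 0.325 did not pass (edgeR adjusted p = 0.0946). Of its sites 1 was called, and the test stratified by site called the gene lower (adjusted p = 0.000307). Of 21 Polycomb and chromatin genes 3 were called lower, with a median of -0.0391. Nsd1, a histone H3 lysine methyltransferase, had 0.509 and 0.519 against 0.377 (edgeR adjusted p = 0.0139). Kdm1a, a histone demethylase, had 0.631 and 0.611 against 0.464 in sgCtrl and 0.581 in sgGata6 (edgeR adjusted p = 0.0325).

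Of 24 splicing factors 3 were called lower (Srrm2, Son and Srsf6) and the median was -0.0345. Among all genes 5.57% were called lower and 71.7% were below 0, with a median of -0.0463. Srsf6 had 0.404 and 0.364 against 0.229 and 0.262. Srsf11, Srsf4 and Srsf5 were lower by the test stratified by site alone (adjusted p = 0.00152, 0.0098 and 0.0308). That test called 328 of all 2817 genes lower. Of 12 cell cycle genes 11 were below 0 and none was called by summed reads, with a median of -0.0535, and Ccne1 was lower by the stratified test (adjusted p = 0.019). Of 14 p53 pathway and apoptosis genes only Mcl1, an antiapoptotic BCL2 family member, was called lower, and its summed difference of -0.0685 became -0.0116 with equal weight for its 10 sites, without a stratified call (adjusted p = 0.376). Aen, Bax and Mdm2 of this list were lower by the stratified test alone (adjusted p = 0.0267, 0.0324 and 0.0184). The read share of this list was also lower in EPSC, at 0.662% against 1.26% and 1.27%, and its part in these values was not tested.

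Nuclear long noncoding RNAs had 5 members measured, all below 0, with 3 called and a median of -0.122, beside the same 71.7% and 5.57%. Rian and Meg3, imprinted transcripts of the same domain, were lower at all 10 and all 3 of their sites. Rian had 0.448 and 0.444 against 0.324 and 0.320 (edgeR adjusted p = 0.00942), and Meg3 0.406 and 0.426 against 0.240 and 0.228 (edgeR adjusted p = 0.00942). Malat1, a nuclear speckle RNA, had 0.389 and 0.406 against 0.307 with summed reads and 0.404 in sgGata6. Only 5 of its 10 sites were lower, their mean difference was 0.0134, and the call was lost with sgGata6 (adjusted p = 0.778). The test stratified by site called it lower with an adjusted p of 0.032, so the Malat1 result turned on how its sites were weighted. Of the fibroblast (feeder) genes Fstl1, a secreted glycoprotein, was called on 29 reads, with 0.559 and 0.563 against 0.172 in sgCtrl and 0.400 in sgGata6, and the other 4 were not.

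**Figure D5:**
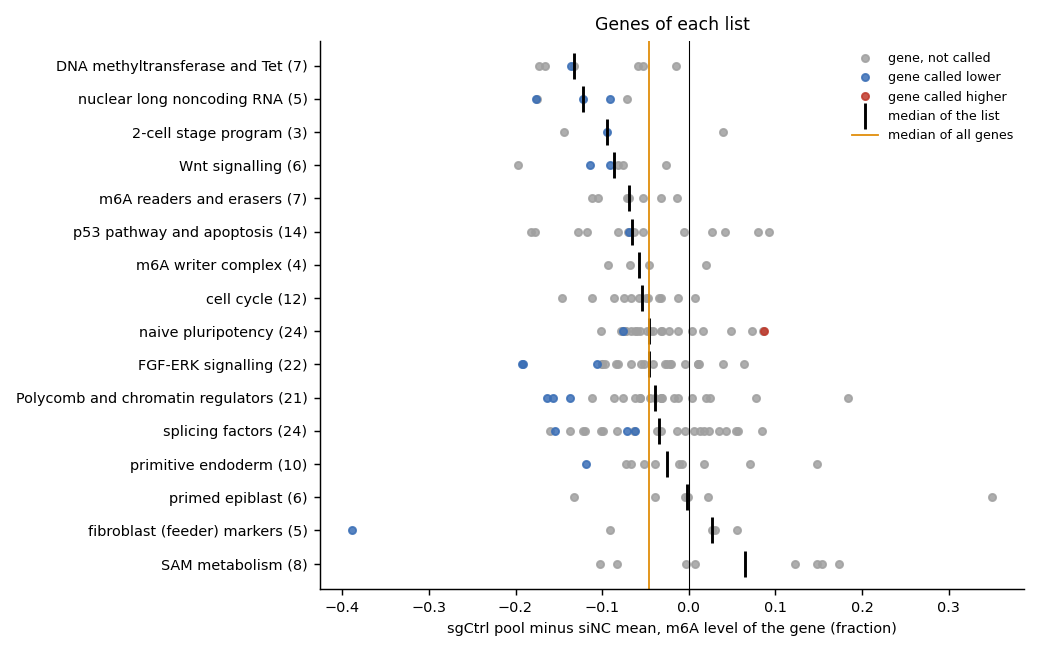
Difference in gene level, sgCtrl minus the siNC mean (horizontal axis, fraction), for each measured gene of the lists with at least 3 measured genes (number in brackets); blue points are called lower, red called higher, grey not called, black ticks the list medians and the orange line the median of all genes. The medians run from -0.132 for DNA methyltransferase and Tet genes to 0.065 for S-adenosylmethionine (SAM) metabolism, with all genes at -0.0463.

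Across the 2817 genes Pearson's r of the level difference and the log2 read ratio of sgCtrl to siNC was -0.121, a description over genes that share these libraries.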

How the data were processed

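Per the labels' protocols, the authors prepared GLORI libraries from mRNA for NovaSeq sequencing. The build is mm39, per the submitters' processing notes. Aligner and caller: not given in the sources used here. Per the file headers, the deposited TBLC lists give counts of A+G and A reads per called site and a level as a fraction, equal to their quotient within 5e-06. They also give p-values by the authors, a gene conversion rate as a fraction and a deposited gene coverage signal, which were not tested. The deposited EPSC table gives counts pooled over each guide's libraries.

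Groups came from sample titles. Members and gene lists were chosen with earlier results of these data known. A term per library and a state effect on A reads were fitted with edgeR 4.0.16 in R 4.3.3, with limma 3.58.1, DESeq2 1.42.0 and Fisher's exact test as alternatives, and the methods were tested on simulated data. The siNC totals over all listed sites were 4764955 and 4367999 A+G reads. The 95% Wilson intervals reflect counting error alone: no molecular identifiers are recorded, so reads may repeat a molecule. Of 2817 symbols, 2796 were found in the name tables. Without an mm39 annotation, exons, UTRs and sequences are not stated.

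Named sites were called, had at least 50 reads in each column, a gene name and a difference of at least 0.2 to both siNC libraries (5 largest each way, 1 per gene). Named genes were the 8 largest called differences each way with at least 100 reads in each column, up to 2 per list with the lowest p, all m6A writers, readers and erasers measured, the 4 with most sites, those with calls both ways, and Gata6. Other genes were named after their values were seen. The values of 1 called gene are not reported here.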

Additional observations from a re-analysis of the deposited data

How the results depend on the processing

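The median site difference stayed negative under each alternative run. It was -0.0373 with at least 50 reads, -0.0446 with no minimum, -0.0390 with the sgGata6 pool, -0.0442 over sites with a gene name, -0.0404 with 1 site per gene, -0.0455 over levels of at least 0.2, -0.0319 over sites that meet the list minimums in sgCtrl, and -0.0420 to -0.0404 without either siNC replicate. The sgGata6 setting has its own set of sites. Over the 7211 member sites with at least 20 sgGata6 reads the median of sgGata6 minus the siNC mean was -0.0406. Sites at least 0.2 lower made up 4.42% with 50 reads and 12.2% with no minimum, and higher ones 0.301%, 2.60% and, with sgGata6, 1.62%. At a size of 0.1 they were 28.3% and 6.68%, and at 0.3 they were 1.64% and 0.125%.

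Lower and higher site calls numbered 8 and 5 with no minimum, 243 and 25 with limma, 8 and 3 with DESeq2 (6653 sites without an adjusted p), and 106 and 83 relative to the median shift. Lower calls were 178 with sgGata6 and 211 to 233 without a siNC replicate (Fisher's exact test). Lower and higher gene calls numbered 308 and 34 with sgGata6, 273 and 31 with Fisher's exact test, 0 and 0 with limma, 35 and 3 with DESeq2 (1802 genes without an adjusted p), 19 and 24 relative to the shift, 328 and 31 stratified by site, and 220 to 240 and 21 to 25 without a siNC replicate. Lower gene calls were 88 with an edgeR variance not below counting error and 99 with the deepest site of each gene, and higher ones 24 with at least 50 reads. With equal weight per site the gene median was -0.0437. The sgCtrl minimums, variance floor and stratified test were chosen after seeing the data.

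Some genes not called changed sign in log2 odds. Relative to the shift these were Alkbh5 (0.0049), Gata6 (0.28), Msh6 (0.15), Ythdc1 (0.13) and Ythdf1 (0.25). With sgGata6 they were Mettl14 (0.0329), Wtap (-0.63), Yap1 (0.0443) and Zc3h13 (0.0548). With the deepest site they were Fn1 (-0.17), Gata6 (0.31), Yap1 (0.0671) and Ythdf1 (0.0577), with 50 reads Fn1 (-0.18) and Yap1 (0.0672), and with no minimum Virma (0.21) and Wtap (-0.0746). Of the called genes, Malat1 changed sign with sgGata6 (0.0466) and Eef2 with the deepest site (-0.10) and stratified by site (-0.0556). The causes were not tested. Without a siNC replicate Mdm2 passed either way (adjusted p = 0.0389 and 0.0260), and Igf2bp1 (0.0394) and Msh6 (0.0258) passed without replicate 2, by Fisher's exact test.

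No paired analysis was possible because the EPSC columns are pooled and carry no replicate number. The EPSC side has no replicate, and its depth, a median of 32 reads per site, limits single sites.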

Other observations

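Of the 20 sites with the most sgCtrl reads 9 were called higher and 1 lower, several of them on small differences. Among all 7983 sites 0.476% were called higher and 4.6% lower. At chr7:130436273, for which the lists name no gene, the level was 0.954 in both siNC libraries and 0.976 in sgCtrl over 33353 reads, with 0.977 in sgGata6 (edgeR adjusted p = 4.58e-81). The siVirma libraries stood at 0.954 and 0.953 there, level with siNC. Other called higher sites without a gene name were also close to siNC in siVirma. At chr16:17040254 siVirma gave 0.954 and 0.952 against 0.956 and 0.956 in siNC. At chr12:78397702 the values were 0.937 and 0.934 against 0.944 and 0.939, and at chr19:61187042 0.977 and 0.977 against 0.979 and 0.974. The called sites in Hsp90aa1 and at chr9:78385860 in Eef1a1 have no siVirma value. At chr9:78385956 in Eef1a1, also called higher, siVirma gave 0.156 and 0.153 against 0.541 and 0.543 in siNC. Gm26917, a predicted gene on chromosome 17, had 0.871 and 0.858 against 0.895 in sgCtrl and 0.837 in sgGata6 at its deepest site, position 40159055, with 0.853 and 0.850 in siVirma. There the EPSC pools lay on opposite sides of the TBLC libraries, so the call separates these libraries and not the cell states. Of the 610 sites with at least 100 sgCtrl reads 84 were called lower and 24 higher, and of the 3410 sites with 20 to 29 reads 91 and 7. Calls in the shallow sites needed larger differences.

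Of the 405 called sites 13 had no gene name. The one with the widest difference, chr16:24703902 on the plus strand, had 0.979 and 0.933 in siNC, 0.238 in sgCtrl and 0.0588 in sgGata6. The EPSC values rest on 21 and 17 reads and the siNC values on 47 and 45, so this site is shallow. In siVirma replicate 1 its level was 0.968, and replicate 2 has no value there.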
